A study of Mus musculus with 4 samples.

Results

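The genes described here are the nuclear genes that build the mitochondrial ribosome and the respiratory chain, followed through m6A profiles of mouse liver with and without METTL3 in hepatocytes. They were taken by symbol from the table of m6A peaks: every gene whose symbol starts with Mrpl, Mrps, Nduf, Atp5, Uqcr, Timm, Tomm or Cox followed by a digit, and Sdha, Sdhb, Sdhc and Sdhd. The rule gave 121 of the 7835 genes in the table and 159 of its 12815 distinct peaks. The table gives 3 of these peaks to a pair of member genes each, which makes 162 combinations of a peak and a gene, and counts by gene group are over these. Of the 121 genes, 112 were protein coding, out of 207 protein-coding genes with such symbols in the annotation (54.1%), and 9 were noncoding, 7 of them processed pseudogenes.

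Livers came from chow-fed C57BL/6 mice at 8 weeks old, either Mettl3 flox/flox (flox) or Mettl3 flox/flox with an Alb-Cre transgene (HKO). Both genotypes thus carried the floxed allele. The albumin promoter drives Cre in hepatocytes, so the deletion was aimed at these cells. Whether all other liver cells of HKO mice kept Mettl3 was not measured here. Poly(A)+ RNA was fragmented and precipitated with an m6A antibody, and sequencing covered the precipitate (IP) as well as unprecipitated RNA (input). Each of the 4 libraries, 1 for each genotype and fraction, was made from RNA pooled from 3 mice, so the differences could not be checked against replicates and are given without p-values.

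Library totals ranged from 14972301 to 18365473 reads. At the 159 peaks the median read count was 379 in flox IP, 401 in HKO IP, 160 in flox input and 229 in HKO input. Mettl3 had 0 peaks in the table, so its deletion could not be checked there. Of the hepatocyte markers, 8 of 11 had a peak, with a summed input of 10392 RPM (reads scaled to the library total) in flox and 8667 RPM in HKO, and of the lymphocyte markers 0 of 6 had one. Peaks of 6 of 7 macrophage markers summed to 266 RPM in flox input and 450 RPM in HKO input, those of 2 of 5 cholangiocyte markers to 13.0 and 35.6 RPM, those of 4 of 7 stellate cell markers to 20.7 and 33.0 RPM, and those of 5 of 7 endothelial markers to 107 and 76.8 RPM. The part of these cells in the results below was not tested. In bulk liver, fewer cells of a type and less RNA per cell cannot be told apart.

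As background, mitochondria make only a few core subunits of the respiratory chain themselves, on a ribosome whose proteins are all encoded in the nucleus, made in the cytosol and imported through the outer (TOM) and inner (TIM) membrane translocases. Complex I, complex II, complex III and complex IV pass electrons from NADH and succinate to oxygen, and ATP synthase uses the proton gradient they build. Dedicated assembly factors, which are not part of the finished complexes, put them together. METTL3 is the catalytic subunit of the complex that writes m6A in mRNA, mostly in long exons near stop codons and at DRACH sites, of which GGACT is a frequent form.

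m6A enrichment is given as IP RPM over input RPM in the same genotype, and its change as log2 of HKO over flox enrichment. A peak counted as lower or higher in HKO when its enrichment changed at least 2-fold. Each change has a 95% interval from the read counts of the 4 libraries, which covers counting error only and not the variation between mice. PCR copies among the reads make it too narrow.

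For 14 peaks the GGACT nearest to the middle of the peak is shown, since some peaks with this motif fell and others did not. This held within the mitoribosome too, where 10 of 20 peaks with it were lower. Windows hold 10 bases on either side, from GENCODE transcripts of GRCm38, written 5' to 3' on the strand of the transcript, and capitals mark every GGACT in the window. The first 10 are from peaks that were lower in HKO and the last 4 from peaks that were not. These numbers do not follow the shares, since 16 of all 43 peaks with GGACT were lower.
Mrpl46, chr7:78775470-78775494, minus strand, coding sequence before the stop codon: gatttctcctGGACTctgatGGACT
Mrpl15, chr1:4781977-4782001, minus strand, 3' UTR: tgaatctgaaGGACTgcttactcaa
Mrpl12, chr11:120488446-120488470, plus strand, 3' UTR: gaGGACTtacGGACTagagttctgg
Mrps7, chr11:115607564-115607588, plus strand, 3' UTR: ggtccaatctGGACTagaataaaga
Mrps26, chr2:130565281-130565305, plus strand, 3' UTR: acagaggatcGGACTGGACTgtgtc
Ndufaf4, chr4:24901835-24901859, plus strand, coding sequence before the stop codon: ccagaaacatGGACTgctgagaaaa
Cox15, chr19:43736685-43736709, minus strand, 3' UTR: tcatttcctaGGACTggaactgcct
Cox19, chr5:139338047-139338071, minus strand, 3' UTR: ggacccgtcaGGACTgaaccctgct
Cox7a2l, chr17:83502280-83502304, minus strand, 3' UTR: cagggcctcgGGACTcaggcggtgt
Timm17a, chr1:135301872-135301896, minus strand, 3' UTR: ggaaccgggtGGACTgtagttcggt
Mrps28, chr3:8802268-8802292, minus strand, coding sequence before the stop codon: aagagatcagGGACTcaaaatcaag
Mrpl4, chr9:21008572-21008596, plus strand, coding sequence before the stop codon: tactctggcaGGACTcaagatacac
Tomm7, chr5:23839797-23839821, minus strand, across the stop codon: tggggataaaGGACTgtttgaacat
Uqcrh, chr4:116074952-116074976, minus strand, across the start codon: tcccgacatgGGACTagaggacgaa

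The first comparison asked which of these transcripts lost m6A enrichment in HKO liver, by at least 2-fold. Enrichment was lower at 27 of the 159 peaks (17.0%, against 24.3% of all peaks) and higher at 5 (3.14%, against 6.25%). All 5 higher peaks were called in HKO alone, as were 662 of the 801 higher peaks of the whole table. At the gene level, 26 of 121 genes had a lower peak (21.5%, against 34.5% of all genes in the table). Of the 27 lower peaks, 17 were in mitoribosomal protein genes, 6 in assembly factors, 2 in translocase genes and only 2 in the 70 peaks of respiratory chain and ATP synthase subunits. The median log2 change was 0.37 over the 159 peaks and -0.04 over all peaks.

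**Figure D1:**
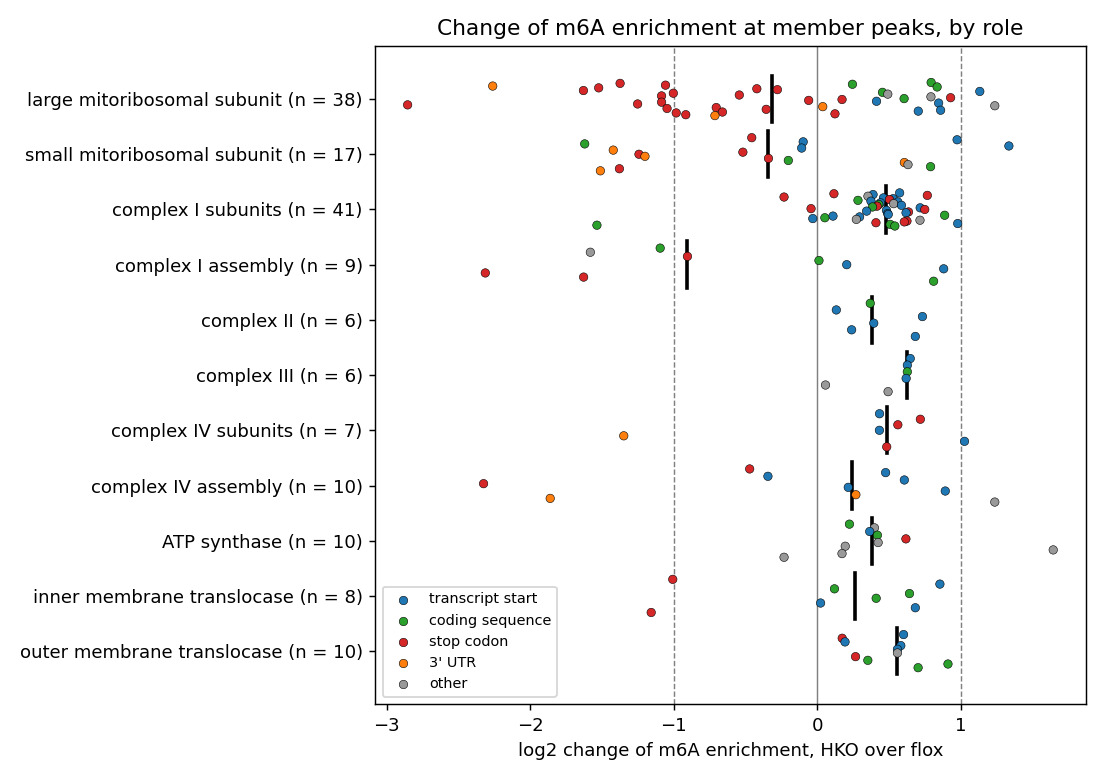
Log2 change of m6A enrichment (HKO over flox, x axis) of each peak of the 121 genes, in rows by the role of the gene; points are coloured by where the peak lies in the transcript, black bars are medians and dashed lines mark a 2-fold change. Both mitoribosomal rows spread to the left of the line for a 2-fold fall, whereas the rows of complex II, complex III, ATP synthase and the outer membrane translocase have 0 peaks to its left.

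Mitoribosomal proteins held the most lower peaks. In the large subunit 11 of 38 peaks were lower, in 11 of 31 genes, with a median log2 change of -0.32. In the small subunit 6 of 17 peaks were lower, in 5 of 14 genes, with a median of -0.34. Together, 17 of 55 peaks were lower (30.9%, against 24.3% of all peaks) and 3 were higher. By gene, 16 of 45 had a lower peak (35.6%), close to the 34.5% of all genes in the table.

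The largest fall of the whole set was at Mrpl46, a protein of the large subunit, at its stop codon (chr7:78775288-78775712, in the last of 4 exons). Its IP was 40.1 RPM in flox and 19.7 RPM in HKO, and its input was 5.54 RPM in flox and 19.7 RPM in HKO. IP stood well above input in flox and level with it in HKO. Enrichment was 7.23 in flox and 1.001 in HKO, a log2 change of -2.85 (-3.24 to -2.46), with less IP and more input in HKO.

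Mrpl15 had the highest flox enrichment of the large subunit, at 9.30, in its 3' UTR (chr1:4781542-4782118). IP was 12.4 RPM in flox and 2.96 RPM in HKO, whereas input was 1.34 and 1.52 RPM. Here the IP fell with little difference in input, and the log2 change was -2.26 (-3.20 to -1.32), a wide interval from 19 and 27 input reads. A peak in exon 2 of the same gene had an enrichment of 1.40 in flox and 2.49 in HKO, a log2 change of 0.83 (0.44 to 1.22).

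Mrpl12, which in human cells also binds the mitochondrial RNA polymerase, had the most IP reads of the large subunit. Its peak at the stop codon had 342 RPM of IP in flox and 163 RPM in HKO, over inputs of 61.6 and 76.0 RPM. Enrichment was 5.55 and 2.14, a log2 change of -1.37 (-1.51 to -1.24), so the HKO peak stayed above input. Mrpl19 (-1.63), Mrpl16 (-1.52) and Mrpl45 (-1.25) also had lower peaks at the stop codon, with flox enrichments of 5.23, 3.16 and 2.83. Mrpl32, Mrpl41, Mrpl14, Mrpl53 and Mrpl20 lay between -1.08 and -1.003. Mrpl20 was the last peak inside the 2-fold limit and Mrpl57, at -0.98 (-1.20 to -0.76), the first outside it.

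Of the small subunit, Mrps2 fell most, in the coding sequence of its last exon, 270 nt before the stop codon. IP was 48.1 RPM in flox and 43.6 RPM in HKO, and input was 13.2 and 36.8 RPM. The input differed more than the IP, and the log2 change was -1.62 (-1.89 to -1.35). Mrps7, with the most IP reads of the small subunit, had 169 RPM of IP in flox and 88.1 RPM in HKO at its stop codon, over inputs of 43.3 and 58.8 RPM, a log2 change of -1.38 (-1.54 to -1.21). A further peak listed for Mrps7, at -1.51, lay mostly in exons of the neighbouring gene Mif4gd.

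The 3' UTR peaks of Mrps27 (-1.20) and Mrps23 (-1.42) and the stop codon peak of Mrps26 (-1.24) were lower as well, each with an enrichment in HKO between 1.001 and 1.39. Mrps25 had the highest flox enrichment of the small subunit, 4.58, and kept 3.20 in HKO, a log2 change of -0.52 (-1.07 to 0.03). Peaks at transcript starts went the other way in Mrps21 (1.33, 0.69 to 1.97) and Mrpl2 (1.13, 0.66 to 1.60), from enrichments of 1.07 and 1.32 in flox. Both were called in HKO alone, the genotype where they are high. Mrpl33 at its stop codon had 0.93 (0.59 to 1.27). The peak with a log2 change of 1.24 that the table gives to Mrpl48 lay outside its exons, in the pseudogene Cox20b.

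**Figure D2:**
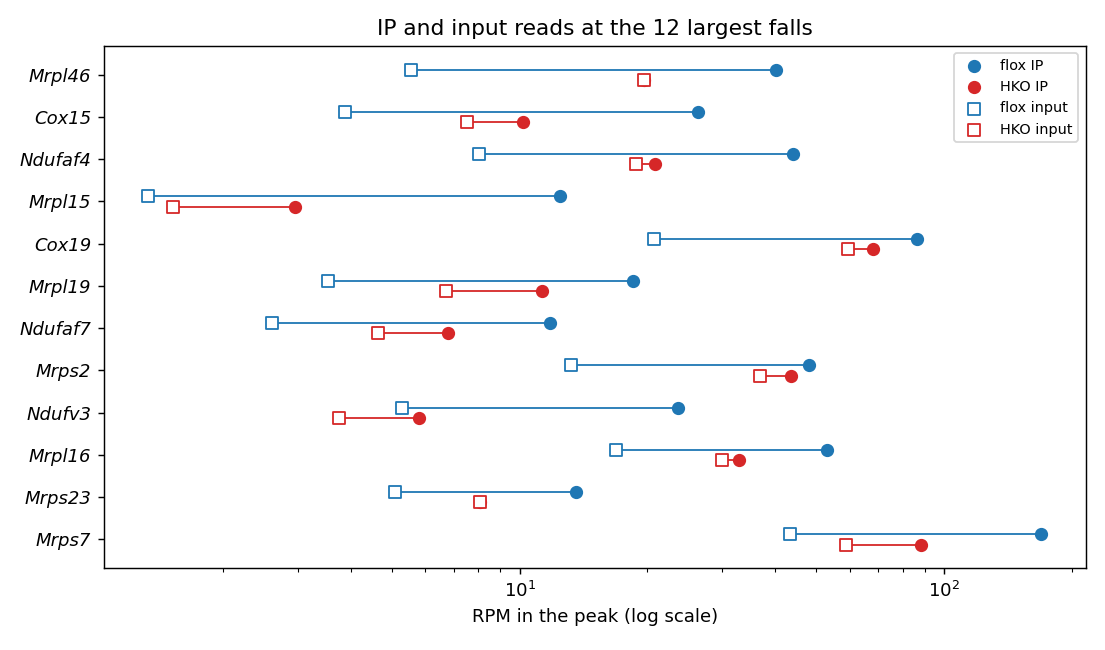
IP (filled circles) and input (open squares) in RPM on a log axis, in flox (blue) and HKO (red), at the 12 largest falls among peaks in exons of the genes named. Each line spans IP and input of 1 genotype; enrichment at these peaks was 2.68 to 9.30 in flox and 1.001 to 1.94 in HKO, and for Mrpl46 and Mrps23 the HKO IP point lies under the input square.

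Of the 70 peaks of respiratory chain and ATP synthase subunits, 2 were lower (2.86%) and 2 were higher, 64 had a log2 change above 0 (against 6263 of all 12815 peaks), and the median was 0.45. This sign depends on the scaling: centred on the median of all start peaks, 0.46, the median of the chain subunits was -0.01, and 2 peaks were again lower. By complex, 1 of 41 complex I peaks, 0 of 6 in complex II, 0 of 6 in complex III, 1 of 7 in complex IV and 0 of 10 in ATP synthase were lower, with medians of 0.48, 0.38, 0.62, 0.48 and 0.38. Their flox enrichment had a median of 1.37, against 1.49 in the translocases, 2.09 in the mitoribosome, 3.26 in the assembly factors and 2.84 over all peaks. The 27 lower peaks of all groups had a flox enrichment of at least 2.08 and an HKO enrichment of at least 1.0008. A peak with a flox enrichment near 1.37 thus had little room for a 2-fold fall. How much this shaped the differences between groups was not tested.

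The lower peak of complex I was in Ndufv3, an accessory subunit of the NADH-oxidising module that has a short and a long form through an alternative exon. The peak (chr17:31527307-31527649) lay in exon 3 of 4 of the longer transcript, an internal coding exon of 1092 nt. Its IP was 23.6 RPM in flox and 5.80 RPM in HKO, over inputs of 5.28 and 3.76 RPM, so IP was low in HKO and input a little lower. Enrichment was 4.48 and 1.54, a log2 change of -1.53 (-2.10 to -0.97). The 340 exonic bases under this peak held 0 GGAC, and 240 of them are given here because this was the only lower peak among complex I subunits.
Ndufv3, chr17:31527359-31527598, plus strand, coding sequence: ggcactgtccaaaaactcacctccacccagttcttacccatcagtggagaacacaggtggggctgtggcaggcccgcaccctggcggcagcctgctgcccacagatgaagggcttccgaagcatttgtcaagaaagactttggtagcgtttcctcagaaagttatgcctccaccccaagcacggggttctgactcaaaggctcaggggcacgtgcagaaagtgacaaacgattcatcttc
A second peak further along the same exon had a log2 change of 0.54 (0.19 to 0.89) and one in exon 2 of 0.51 (0.21 to 0.81), so the 3 peaks of Ndufv3 did not move together.

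Among the other complex I subunits, Ndufb7 had the most IP reads, at its stop codon. IP was 87.9 RPM in flox and 96.4 RPM in HKO and input 58.8 and 41.5 RPM, a log2 change of 0.63 (0.46 to 0.81), and the peak also overlapped exons of Tecr. Ndufs3, a core subunit, had the highest flox enrichment listed, 4.96, on only 8 input reads, in a start peak that lay more in exons of Kbtbd4 than in its own, and its log2 change was 0.29 (-0.88 to 1.47). Ndufv2 (0.98, 0.45 to 1.501) at its transcript start and Ndufs1 (0.89, 0.48 to 1.29) in exon 7, both core subunits with iron-sulphur clusters, had the largest positive values of complex I, and neither reached a 2-fold change.

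In complex II, Sdha (the flavoprotein that oxidises succinate) had the highest flox enrichment, 2.50, with 2.74 in HKO, and Sdhd (a membrane anchor) the most IP reads, with a log2 change of 0.24 (0.00 to 0.47). In complex III, Uqcrh, the hinge protein, had a peak at its transcript start with 40.6 RPM of IP in flox and 45.4 RPM in HKO over inputs of 19.0 and 13.8 RPM, a log2 change of 0.62 (0.33 to 0.90). The highest enrichment and the most IP reads of complex III were listed at the pseudogenes Uqcrh-ps1 (0.06) and Uqcrh-ps2 (0.49), and reads of such copies cannot be told apart from those of Uqcrh. In ATP synthase, Atp5g3, a c-ring subunit, had the most IP reads, with enrichments of 2.80 and 3.61 and a log2 change of 0.36 (0.23 to 0.50). The table gives Atp5o 4 peaks, 1 of them higher (1.64, 0.67 to 2.62), but 0 of the 4 lay in exons of the gene model used for it: 3 overlapped exons of Itsn1, the higher one among them, and 1 an exon of another model with the same symbol.

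In complex IV, the peak that was lower and had the most IP reads was in the 3' UTR of Cox7a2l. This gene has been described as a factor that joins complex III and complex IV into supercomplexes. Whether it has this role in these mice was not measured here. IP was 194 RPM in flox and 132 RPM in HKO and input 47.0 and 81.2 RPM. Both fractions moved, in opposite directions, and the log2 change was -1.35 (-1.498 to -1.20). The transcript start of Cox7b, a small subunit, was the other called peak, higher in HKO (1.02, 0.67 to 1.38), with an input of 15.5 RPM in flox and 9.47 RPM in HKO.

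Of the 19 assembly factor peaks 6 were lower (31.6%, against 24.3% of all peaks), in 6 of 12 genes (against 34.5% of all genes). For complex I these were 4 of 9 peaks. Ndufaf4, which acts early in assembly, had 44.1 RPM of IP in flox and 20.9 RPM in HKO at its stop codon and inputs of 8.01 and 18.8 RPM. Enrichment was 5.51 and 1.11, a log2 change of -2.31 (-2.66 to -1.96). Ndufaf7, an arginine methyltransferase that acts on a core subunit, followed with -1.63 (-2.26 to -0.99), and Ndufaf1, in its long second exon, with -1.09 (-1.41 to -0.78). The peak listed for Ndufaf2 with the highest flox enrichment of these factors (7.43, log2 change -1.58) lay outside the exons of that gene, in an exon of Smim15, and its own stop codon peak had -0.90 (-1.44 to -0.37).

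For complex IV, 2 of 10 peaks were lower. Cox15, which makes the heme A of complex IV, had 26.4 RPM of IP in flox and 10.2 RPM in HKO at its stop codon and inputs of 3.87 and 7.51 RPM. Enrichment was 6.81 and 1.36, a log2 change of -2.32 (-2.83 to -1.82). Cox19, a copper-handling factor, had 86.2 and 68.0 RPM of IP and 20.8 and 59.5 RPM of input in its 3' UTR, a log2 change of -1.86 (-2.07 to -1.65), most of it in the input. Cox10, which acts on heme just before Cox15, had -0.47 (-0.97 to 0.02) at its stop codon. Cox17, the copper chaperone, had 0.89 (0.60 to 1.18) at its transcript start.

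The translocases were mixed. In the inner membrane, Timm9, a small chaperone of the intermembrane space, was lower (-1.16, -1.48 to -0.83) with IP of 35.6 and 16.5 RPM over inputs of 14.9 and 15.4 RPM, so IP fell at almost equal input. Timm17a, a channel subunit, was lower too (-1.01, -1.37 to -0.65), and Timm23, its partner with the most IP reads, had 0.85 (0.52 to 1.19) at its transcript start. The outer membrane group was taken by Tomm symbols alone, and 0 of its 10 peaks were lower. Among these symbols Tomm34 had the highest flox enrichment, 2.95, with 3.33 in HKO and a log2 change of 0.17 (-0.41 to 0.76). The peak with the most IP reads, at the start of Tomm6, was shared with its antisense gene Tomm6os (0.56).

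The lower peaks lay mostly at the end of transcripts. Peaks were placed by the middle of their exonic part, and peaks within 200 nt of the transcript start were called start peaks. Of the 27 lower peaks, 23 were within 200 nt of the stop codon or 3' UTR, 3 in the coding sequence and 1 outside exons of the gene listed. Of the 61 peaks at stop codons or in 3' UTRs, 23 were lower (37.7%, against 40.3% of all 4476 such peaks), with a median of -0.52. Of the 51 start peaks, 0 were lower (against 1.57% of all 1660), with a median of 0.49 against 0.46. Median flox enrichment was 1.48 at these start peaks (2.07 over all start peaks) and 2.38 at the 61 peaks at transcript ends. The start peaks thus had less room for a 2-fold fall, and the part of this was not tested.

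The groups differed in where their peaks lay. In the mitoribosome 34 of 55 peaks (61.8%) were at the stop codon or 3' UTR, and 16 of the 34 were lower, with a median of -0.95. In the chain subunits 16 of 70 (22.9%) were there and 30 (42.9%) at the start, and 1 of the 16 was lower, with a median of 0.53. Among peaks at the transcript end, the share of lower peaks was thus 47.1% in the mitoribosome and 6.25% in the chain subunits. Over all peaks there it was 40.3%. The median flox enrichment of these end peaks was 2.73 in the mitoribosome and 1.29 in the chain subunits. The chain subunits thus had less room for a 2-fold fall, and the part of this was not tested.

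**Figure D3:**
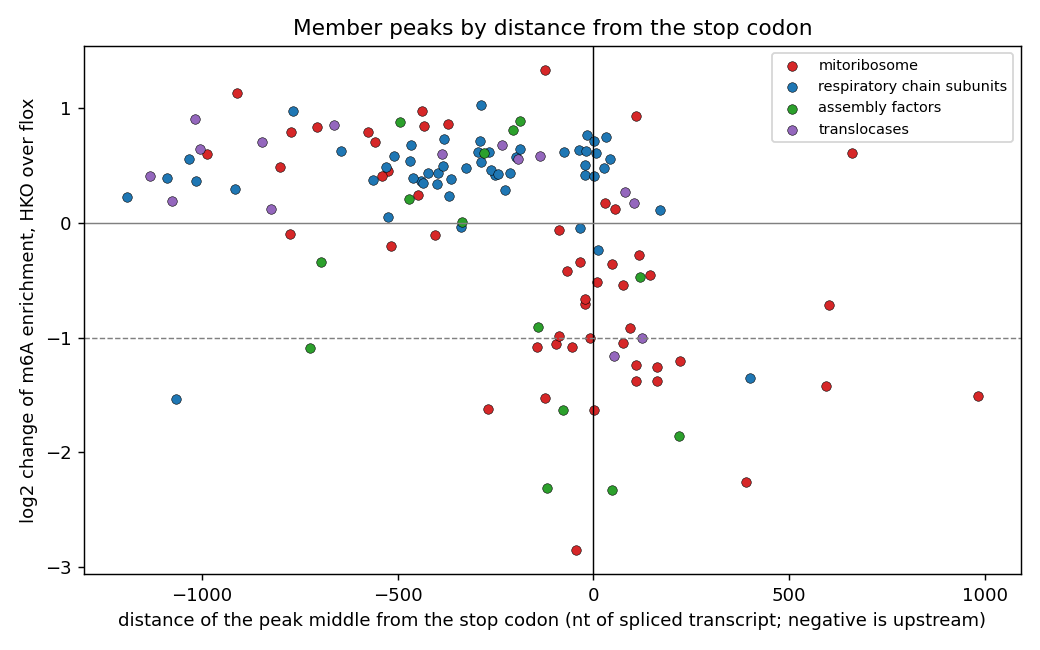
Distance of the peak middle from the stop codon along the spliced transcript (x axis, nt, negative is upstream) against the log2 change of enrichment (y axis), for the 134 coding-transcript peaks within 1200 nt of the stop codon, coloured by gene group. The points below the dashed 2-fold line gather around and after the stop codon and are mostly mitoribosomal proteins and assembly factors, while 13 of the 16 chain subunit peaks at the stop codon or 3' UTR lie above 0.

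In 13 genes a start peak and a peak at the stop codon or 3' UTR could be set side by side, each in exons of that gene. The end peak had the lower change in 12 of the 13, with a median difference of -0.69 in log2 (-3.19 to 0.13), and Cox6b1 was the exception. Except in Cox17 and Ndufaf2, these start peaks were called in HKO alone. They thus entered the comparison through the genotype where they are high, so the contrast is not independent of peak calling. The part of this was not tested. In Ndufaf4 the start peak went from an enrichment of 1.62 to 2.99 (0.88, 0.41 to 1.35) while the stop codon peak went from 5.51 to 1.11. In Mrps23 the start had -0.11 and the 3' UTR -1.42, and in Mrps2 the start had -0.10 against -1.62 in the last exon. At the start of Cox15, in a peak that also overlaps Cutc, the log2 change was 0.22.

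**Figure D4:**
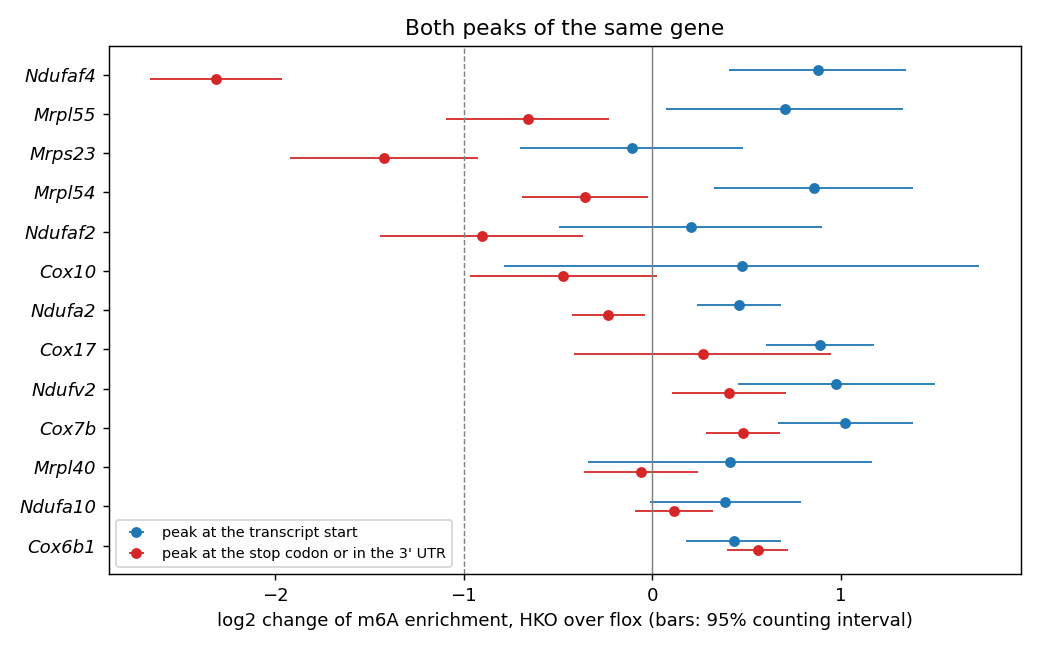
Log2 change of enrichment (x axis) of the start peak (blue) and of the peak at the stop codon or 3' UTR (red) of the same gene, for 13 genes; bars are 95% counting intervals and the dashed line marks a 2-fold fall. The red point lies to the left of the blue in every gene except Cox6b1, and beyond the dashed line in Ndufaf4 and Mrps23.

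GGACT, searched on the transcript strand, was in 43 of the 154 peaks with exonic sequence (27.9%, against 38.2% of all such peaks). Peaks with it had a median log2 change of -0.42 and 16 of 43 were lower (37.2%, against 39.5% of all exonic peaks with it), and peaks without it a median of 0.45 with 10 of 111 lower (9.01%, against 15.2%). Median flox enrichment was 2.38 with GGACT and 1.47 without it, against 3.61 and 2.37 over all exonic peaks. Peaks without it thus had less room for a 2-fold fall, and the part of this was not tested. Of the 43 peaks, 18 were above 0, and the median was 0.20 when the motif was shortened to GGAC and 0.17 when GGAC before any base but G was used. Among peaks at stop codons and in 3' UTRs, 16 of 29 with GGACT were lower and 7 of 32 without it, against 49.4% and 30.8% over all peaks there. Median flox enrichment of these member peaks was 3.16 with GGACT and 1.86 without it. The motif was in 19 of the 34 such peaks of the mitoribosome and in 2 of the 16 of the chain subunits, Cox7a2l and Ndufa2. Ndufa2, a complex I subunit, had a log2 change of -0.23 (-0.42 to -0.04) at that peak and 0.46 at its start.

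The exons that held these end peaks were also of unlike length, with medians of 841 nt (268 to 6939) in the mitoribosome, 2187 nt in the assembly factors and 321.5 nt (99 to 950) in the chain subunits. Split at 400 nt, a value chosen after the lengths were seen, 22 of 45 end peaks in longer exons were lower and 1 of 16 in shorter ones, Mrpl20. Over all peaks at stop codons and in 3' UTRs the shares were 43.2% and 6.20%. Median flox enrichment was 2.76 in the longer and 1.67 in the shorter exons, against 3.57 and 1.88 over all peaks there. End peaks in shorter exons thus had less room for a 2-fold fall. Within the longer exons, 15 of 28 mitoribosomal and 1 of 7 chain subunit peaks were lower, with median flox enrichments of 2.91 and 1.19. GGACT was in 25 of the 45 end peaks in longer exons and in 4 of the 16 in shorter ones, and the part of each feature was not tested.

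**Figure D5:**
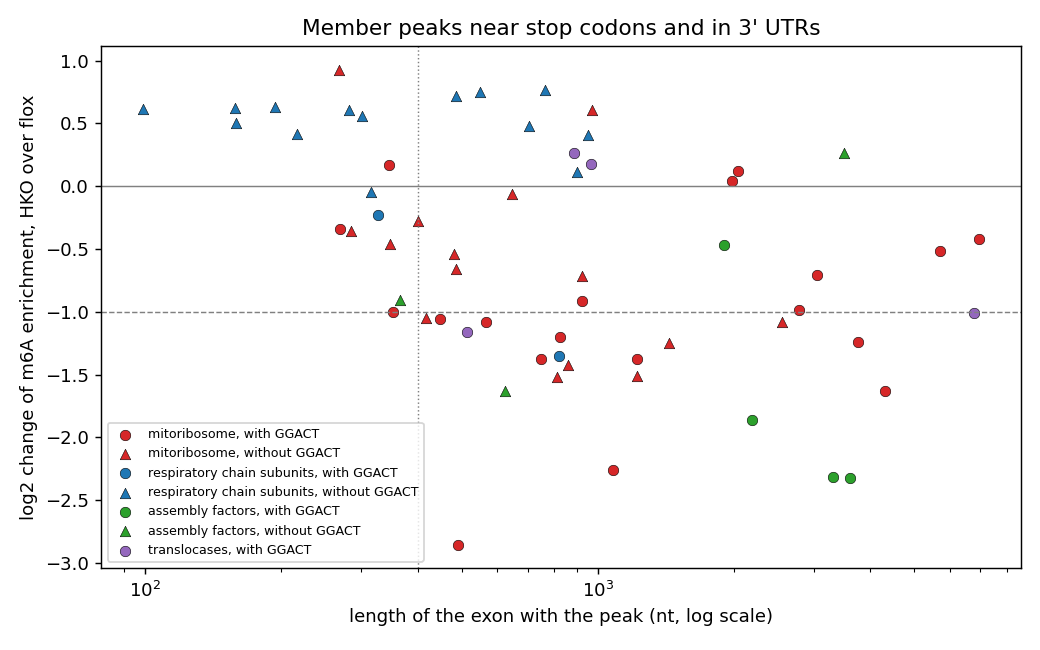
Length of the exon that holds the peak (x axis, nt, log scale) against the log2 change of enrichment (y axis) for the 61 peaks at stop codons or in 3' UTRs; colour gives the gene group, circles have GGACT and triangles do not. Left of the dotted line at 400 nt only Mrpl20 is at or below the dashed 2-fold line; the blue chain subunits lie above 0 in 13 of 16 peaks.

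The second comparison was of input, which follows transcript abundance under the peaks. Summed over the peaks of a gene, the median log2 change of input RPM was 0.03 over the 121 genes, with 64 above 0, against 0.21 over all genes. It was 0.20 in the mitoribosome, 0.56 in the assembly factors, 0.15 in the translocases and -0.21 in the chain subunits. Input was at least 2-fold higher in 7 genes, Mrpl46 (1.83), Mrps2 (1.54), Cox19 (1.52), Ndufs3 (1.29), Ndufaf4 (1.28), Mrpl50 (1.09) and Tomm5 (1.02), and at least 2-fold lower in 1, Mrps18c (-1.499, from 52 and 22 reads). The peaks of Ndufs3 and Mrps18c also overlapped exons of Kbtbd4 and Gm43511, and among the 138 peaks in exons of the gene itself 10 inputs were at least 2-fold higher and 0 lower. Over single peaks, 12 of 159 were at least 2-fold higher, against 14.6% of all peaks, and 1 lower, against 5.06%.

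At the 27 lower peaks the IP RPM was below that of flox in all 27 and at least 2-fold below in 9, with a median log2 change of IP of -0.88. Input RPM was above that of flox in 25 and at least 2-fold above in 5, with a median of 0.51. Since input is the denominator of enrichment, these values are not independent of the call. The IP and input each took part in the falls. The input differed more in Mrpl46, Mrps2, Cox19 and Ndufaf1, among others. The IP differed more in Mrpl15, Mrpl12, Timm9 and Ndufv3, among others. At Mrpl46, the largest fall, the log2 change was 1.83 in input and -1.03 in IP.

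Of the 159 peaks, 77 were called in both genotypes (48.4%, against 46.2% of all peaks), 63 in HKO alone (39.6%, against 31.3%) and 19 in flox alone (11.9%, against 22.5%). The mitoribosome had 12 of the 19 called in flox alone, and the chain subunits 1, Ndufv3. Of the peaks called in HKO alone, 60 of 63 had a log2 change above 0, as had 3470 of 4016 over the whole table, and their median enrichment in flox was 1.25, against 1.66. The 27 lower peaks were called in flox alone (15) or in both (12), and 0 in HKO alone. Over the whole table these counts were 1747, 1283 and 86 of 3116. The direction of a change is thus not independent of where its peak was called.

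Other genes of the same pathways were listed by function. Of 16 genes of mitochondrial transcription and translation with a peak, 7 had a lower one. Tfam, which packages and transcribes mitochondrial DNA, had an enrichment of 4.57 in flox and 1.09 in HKO at its stop codon (-2.07, -2.35 to -1.80), and a 5' UTR peak that was higher (1.05, 0.50 to 1.60). Mtif3, an initiation factor, had -1.53, and Gfm1, an elongation factor, -1.37, with Mrrf and Mtrf1l (ribosome recycling and release) at -1.04 and -1.22 and the tRNA synthetases Ears2 and Hars2 at -1.96 and -1.48. Slirp, a mitochondrial mRNA-binding protein, was higher at its start (1.19).

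Further assembly factors had a lower peak in 5 of 12 genes: Sdhaf1 (complex II, -1.73), and Coa6 (-1.70), Sco1 (-1.67), Coa5 (-1.25) and Pet117 (-1.03), which act on complex IV. Of 16 import chaperones and proteases 5 had one, Grpel2 (-2.51), Gfer (-1.67), Chchd4 (-1.56), Afg3l1 (-1.10) and Oma1 (-1.07), and Dnajc19 (1.33) and Mtx1 (1.41) had a higher one. Regulators of mitochondrial biogenesis had a lower peak in 5 of 5 genes, Ppargc1b (-2.64), Gabpa (-2.16), Ppargc1a (-1.74), Pprc1 (-1.64) and Gabpb1 (-1.44), and Pprc1 also a higher one at its start (1.06, -0.05 to 2.18). Of 2 genes of cytochrome c and c1 with a peak, 0 were lower or higher. In the tricarboxylic acid cycle 0 of 8 genes had a lower peak and 1 a higher one, Dld (1.18), and of 5 mitochondrially encoded genes with a peak 0 were lower and 0 higher. In these lists together 22 of 64 genes had a lower peak, against 34.5% of all genes.

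Cytosolic ribosomal proteins are the group most like the mitoribosome in function. Under a rule narrower than planned, which left out genes named after them, they had 12 peaks in the table. Of these 12 peaks, 0 were lower or higher, with a median log2 change of 0.13 and flox enrichment of 1.65. Of these, 10 were at stop codons or in 3' UTRs and 7 held GGACT. The planned list took symbols that start with Rpl or Rps and a digit, with Rplp0, Rplp1, Rplp2 and Rpsa, and without pseudogenes. Limited to protein-coding genes and without symbols that start with Rps6k, which was not planned, it had 19 peaks. Of these, 3 were lower (15.8%): Rps19bp1 (-1.62), Rpl22l1 (-1.41) and Rpl7l1 (-1.12). Its median log2 change was 0.09. The narrower rule also left out Rpl36al (-0.48), so the contrast with the mitoribosome depends on the rule.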

How the data were processed

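The table of m6A peaks deposited by the authors was analysed; peaks had been merged over both genotypes. The submitters' processing notes name BWA 0.7.12-r1039 with GRCm38, FastQC, HOMER and MACS2 2.1.0 as tools, whereas the study's methods name exomePeak as peak caller. BWA does not split reads at introns, so reads across junctions of short exons may be lost or placed on pseudogenes. How libraries keep strand was not stated in the sources used here. The counts deposited by the authors are reads per peak, not normalized. The RPM deposited by the authors is the count plus 1, scaled to the library total, and their fold enrichment is the ratio of IP to input RPM. A deposited column with the authors' own log2 comparison was not used. The number of per-sample columns not used was 0.

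Table lines were reduced to distinct peaks, and peaks were placed on GENCODE transcripts of GRCm38. Enrichment and its change were computed from the counts with 1 added, and library totals came from counts and RPM. With 1 library per group a rule of size (2-fold) replaced a test, and log2 changes have 95% counting intervals. The change and its interval were run on simulated counts with counting error only, the error that the interval assumes. This checks the calculation and cannot show how the interval behaves with variation between mice or PCR copies. Members and lists were chosen with earlier results of these data known. Named genes were, of peaks with at least 456 summed IP reads (the median of all peaks) and with at least 10 reads in each input, the 15 largest falls and 5 largest rises, 1 peak per gene; in each role the highest flox enrichment and the most IP reads; genes with a lower peak and a start peak; and listed pathway genes with a changed peak. Others were named after their values were seen. Alternatives were other sizes, centring, read minimums, added counts, windows, motifs and overlaps. Python 3.11.15, numpy 2.4.6, pandas 2.3.3, scipy 1.17.1 and matplotlib 3.10.9 were used.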

Additional observations from a re-analysis of the deposited data

How the results depend on the processing

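No paired analysis was possible because there was 1 library per genotype and fraction, and for the same reason no library could be left out. Of 89 values under alternatives, 75 stayed close to the main value, which for counts means within 1.5 times it and for medians and shares within the 95% interval of the main value with the same sign. At a 4-fold size, 4 peaks in 4 genes were lower and 0 higher, and at 1.5-fold 45 were higher. The count of 5 higher peaks became 1 when centred on start peaks, 2 among peaks with many IP reads, 2 among peaks that overlap no other gene, and 3 among peaks in exons of the gene itself, an alternative added after seeing the data. Peaks called in HKO alone fell to 32 among those with many IP reads. With GGAC as motif the share of peaks was 60.4% and with GGAC before any base but G 55.2%, and the median change of peaks with the motif turned from -0.42 to 0.20 and 0.17. The median input change of 0.03 turned to -0.18 when centred on all genes. Centred on start peaks, 23 of 55 mitoribosomal and 2 of 70 chain subunit peaks were lower, against 36.8% of all peaks, and the median of the chain subunits was -0.01. At the start peak of Ndufs3, with 8 flox input reads, the interval of -0.88 to 1.47 includes 0 and a 2-fold rise.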
